A study of Mus musculus with 15 samples.

Results

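The genes of the MYC and MAX network were followed through RNA sequencing of mouse small intestinal organoids, which are 3-dimensional cultures grown from isolated crypts. The network was taken as 10 named genes, Myc, Mycn, Mycl, Max, Mxd1, Mxi1, Mxd3, Mxd4, Mnt and Mlx, of the 43629 genes in the count table. All 10 were matched by their Ensembl identifiers, and all passed the filter on low values in each comparison. The study asked how a Ptprk-Rspo3 chromosome rearrangement and loss of the tumour suppressor Apc change intestinal epithelium. The WT group held 5 libraries, namely 4 of unrecombined Apc flox/flox organoids (lines 1, 2, 5 and 6) and 1 of a dox-naive culture (naive), all grown in ENR medium, which holds EGF, Noggin and R-spondin. Apc comprised 4 libraries of lines 1, 2, 5 and 6 with the genotype Apc delta/delta, grown in EN medium, which lacks R-spondin. P-Rspo3 comprised 4 libraries (15d, 4d, M and F) carrying the Ptprk-Rspo3 rearrangement, also in EN medium. All cultures came from the proximal small intestine of C57B6/129 mice. The rearrangement was made by a doxycycline-inducible Cas9 transgene in bulk cultures, so these libraries are populations of many edited cells and not clones. The naive library is of the transgenic kind without doxycycline, whereas the other WT libraries and the Apc libraries are of the flox lines. Genotype, medium and, for P-Rspo3, the line cannot be told apart, except that Apc and P-Rspo3 share their medium. Values of single libraries are given below in the order in which the groups are listed here. The labels do not say whether the numbered cultures came from separate animals, so the p-values measure the spread between these cultures. Library totals were 28902729 to 35528495 counts.

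MYC, MYCN and MYCL are basic helix-loop-helix transcription factors that bind DNA as dimers with MAX at the E-box, with the core letters CACGTG, and mainly activate genes of growth, nucleotide synthesis and ribosome production. MXD1, MXI1, MXD3, MXD4 and MNT compete for MAX and for the same sites, and recruit SIN3 and histone deacetylases to repress. MLX is a MAX-like partner that binds MNT and some MXD proteins and also MLXIP and MLXIPL, the glucose-responsive activators of a parallel branch. In the intestinal crypt Myc is a long known target of Wnt signalling and beta-catenin, the pathway that APC restrains, and MXD1 is typically found in differentiating cells.

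The E-box is the sequence on which both sides of the network meet, so the promoters of the members were read for it. RefSeq promoter windows on GRCm38.p6, from 250 bases before the annotated start through its first 50 bases, were held for 9 of the 10 members, and not for Myc. Of these 9 genes, 4 held CACGTG, a palindrome that reads the same on both strands, against 8.09% of all 27025 genes with a window. The 4 sites are shown with 12 bases on each side, 5′ to 3′ on the strand of the gene, with the E-box in capitals. The Max site lies at chr12:76962234-76962263 (minus strand), the Mxd4 site at chr5:34187912-34187941 (minus strand), the Mnt site at chr11:74830789-74830818 (plus strand) and the Mlx site at chr11:101087238-101087267 (plus strand).
Max: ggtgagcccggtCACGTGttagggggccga
Mxd4: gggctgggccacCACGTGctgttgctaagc
Mnt: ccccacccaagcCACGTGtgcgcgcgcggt
Mlx: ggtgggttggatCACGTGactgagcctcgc
The first base of the E-box stands at position -3 from the start of Max, -219 for Mxd4, -123 for Mnt and -40 for Mlx. No such sequence was in the windows of Mycn, Mycl, Mxd1, Mxi1 and Mxd3. The match is of letters only, and binding was not measured here.

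The groups were first checked against their labels. Rspo3, the R-spondin gene placed under the Ptprk promoter by the rearrangement, was counted 539 to 1079 times per P-Rspo3 library, against 0 or 1 in WT and 7 to 57 in Apc. The Apc gene had 9265 to 10953 counts in the Apc group and 4046 to 6810 in WT, but counts over the whole gene include exons outside the deleted part and do not check the deletion. The 6 epithelial markers examined, among them Epcam and Cdh1, were present in every library, with a summed level of 1932 ± 174 FPKM (fragments scaled to transcript length and sequencing depth, mean ± SD) in WT, 2119 ± 207 in Apc and 2034 ± 207 in P-Rspo3. In the tests of scaled counts described below, Krt18 (log2 fold change 1.11) and Cdh1 (0.24) rose in Apc against WT. Krt19 (-0.81), Krt8 (-0.31) and Epcam (-0.18) fell in these tests, and Cdx2 did not pass (-0.17). In FPKM, Krt8 and Epcam overlapped between Apc and WT, at ratios of the means (Apc over WT) of 0.978 and 1.07. Over the alternatives 1 to 2 of the 6 passed higher and 1 to 3 lower. The 10 stromal markers summed to 0.461 ± 0.0428 FPKM in WT, 0.388 ± 0.14 in Apc and 0.628 ± 0.142 in P-Rspo3, with Pecam1 the most abundant in WT at 0.322 FPKM, and Col1a2, Col3a1, Dcn, Lum and Des had at most 3 counts in every library of each group. Of the 3 stromal genes tested, all at near-zero levels, Pdgfra rose in Apc against WT (log2 fold change 4.50), and Pdgfrb (-3.63) and Pecam1 (-2.95) fell.

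In WT organoids, the level per length was highest for Mlx, with a mean of 67.5 ± 6.83 FPKM (SD, n = 5), followed by Myc with 42.7 ± 5.89 and Max with 25.7 ± 3.23. Mxi1 (14.3 ± 2.82), Mycl (13.7 ± 2.15), Mxd1 (11.4 ± 4.14) and Mxd4 (9.77 ± 2.52) followed, and neighbours in this order did not differ beyond their spread. Mnt stood at 7.44 ± 0.589 FPKM, and Mxd3 (2.65 ± 0.335) and Mycn (2.15 ± 0.223) were lowest. In P-Rspo3 Mlx, Myc and Max again had the highest levels. In Apc the order was different, with Myc at 96.7 ± 11.1 FPKM and Mycl at 61.5 ± 13.1 first, Max at 32.5 ± 1.51 and Mlx at 28.5 ± 2.34 next, and Mycn last at 0.0292 ± 0.0124 (SD, n = 4 each).

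**Figure D1:**
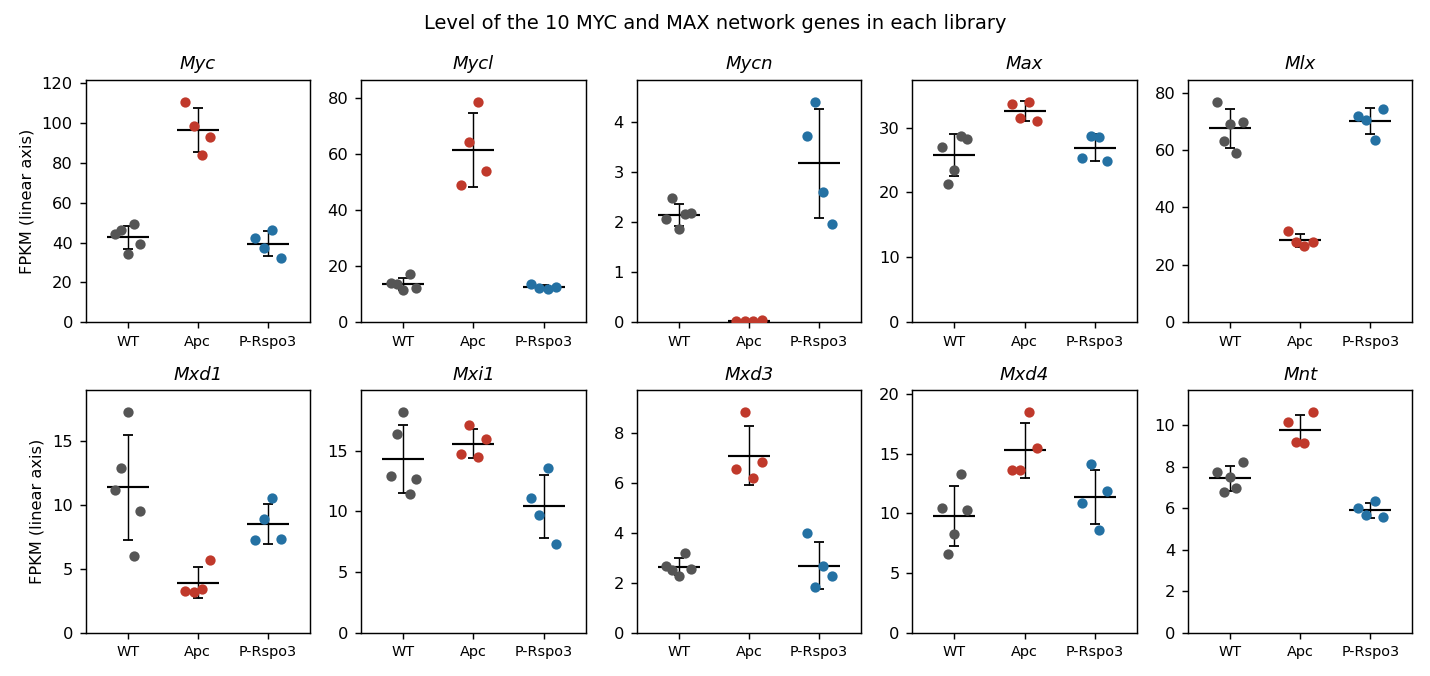
FPKM of each of the 10 genes (linear vertical axes from 0, 1 panel per gene) in the WT, Apc and P-Rspo3 libraries, where each point is a library, the wide line the group mean and the bar the SD. In Apc, Myc, Mycl and Mxd3 lie above every WT and P-Rspo3 library, and Mycn, Mxd1 and Mlx lie below them.

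The first comparison, Apc against WT, asks what loss of APC does to the network. Counts were compared with the quasi-likelihood test of edgeR after TMM scaling, and a gene passed at a Benjamini-Hochberg adjusted p under 0.05 over all genes tested. Myc, Mycl and Mxd3 were higher in Apc, Mycn, Mxd1 and Mlx were lower, and Max, Mxi1, Mxd4 and Mnt did not pass. These 3 and 3 of 10 stand beside 30.0% of all 16749 genes tested that passed higher and 29.0% that passed lower (59.1% together), so the share of members that passed is near that of all genes. On log2(FPKM + 1) the share of higher genes among those that passed was 69.1%, against 50.8% here. With a log2 fold change above 1 also required, 2 members were higher (12.2% of all genes) and 3 lower (14.1%), as Myc itself fell short of that size. In FPKM, every Apc library lay above every WT library for 6 members (37.9% of all genes) and below for 3 (16.6%), so that 9 of 10 did not overlap, against 54.5% of all genes.

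Myc, the most studied of the 3 paralogues, had 44.4, 46.2, 34.5, 49.3 and 39.1 FPKM in the WT libraries, 111, 98.6, 84.3 and 93.3 in Apc and 42.4, 37.5, 46.2 and 32.0 in P-Rspo3. Every Apc library lay above every other library, and WT and P-Rspo3 overlapped. The log2 fold change between Apc and WT was 0.91 (SE 0.10, adjusted p = 2.5e-05). On the FPKM scale the ratio of the means was 2.27, larger than the fold change of the TMM-scaled counts. On log2(FPKM + 1) the median of all genes stood at 0.17 in Apc against WT, where that of the TMM-scaled log2 fold changes was 0.0006. The TMM factors were 0.913 to 0.970 in WT and 1.12 to 1.16 in Apc.

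Mycl, which codes for the shorter paralogue L-MYC, changed more than Myc. It had 14.1, 13.5, 11.5, 17.1 and 12.3 FPKM in WT, 49.1, 64.4, 78.7 and 53.9 in Apc and 13.5, 12.1, 11.7 and 12.5 in P-Rspo3. The Apc libraries lay far above the others, and their own range was wide. The log2 fold change between Apc and WT was 1.87 (SE 0.14, adjusted p = 1.2e-06). Within the Apc group, Apc 5 had the highest Mycl and the lowest Myc, and Apc 1 had the lowest Mycl and the highest Myc.

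Mycn, the paralogue of embryonic and neural tissue, went the other way. Its level was 2.07, 2.48, 1.86, 2.16 and 2.18 FPKM in WT and 3.73, 4.41, 2.6 and 1.97 in P-Rspo3, whereas the Apc libraries held 2, 3, 2 and 5 counts of the gene. It was thus low in WT and close to the limit of detection in Apc, in all 4 lines. The total count of 1058 over the WT libraries against 12 over the Apc libraries corresponds, after scaling for depth, to a ratio of 76.1 (95% interval 43.4 to 148, for counting error only). The fitted log2 fold change of -6.48 (SE 0.26, adjusted p = 2e-08) rests on those few counts, and on log2(FPKM + 1) it was -1.61.

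The shift among the paralogues can be read as a share of their summed level. Mycl made up 23.4% of the summed FPKM of Myc, Mycl and Mycn in WT, 38.8% in Apc and 22.8% in P-Rspo3. The sum itself was 58.5 ± 7.99 FPKM in WT, 158 ± 7.48 in Apc and 55.1 ± 6.41 in P-Rspo3, so the Apc libraries were closer to each other in the sum than in either gene. These sums are descriptions and were not tested.

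Max, the obligate partner of MYC, had 27, 21.3, 23.5, 28.7 and 28.3 FPKM in WT, 33.7, 31.5, 34 and 31.0 in Apc and 25.4, 28.8, 28.6 and 24.9 in P-Rspo3. The Apc libraries lay above the others in FPKM, but the log2 fold change of TMM-scaled counts was 0.05 (SE 0.09, adjusted p = 0.67) between Apc and WT. It passed on log2(FPKM + 1), with 0.33 (adjusted p = 0.0098 with limma), the scale on which most genes were higher in Apc. Its call thus differed between edgeR on counts and limma on FPKM, which differ in quantity, scaling and test, while its sign was the same on both and turned without WT 2 (-0.016).

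**Figure D2:**
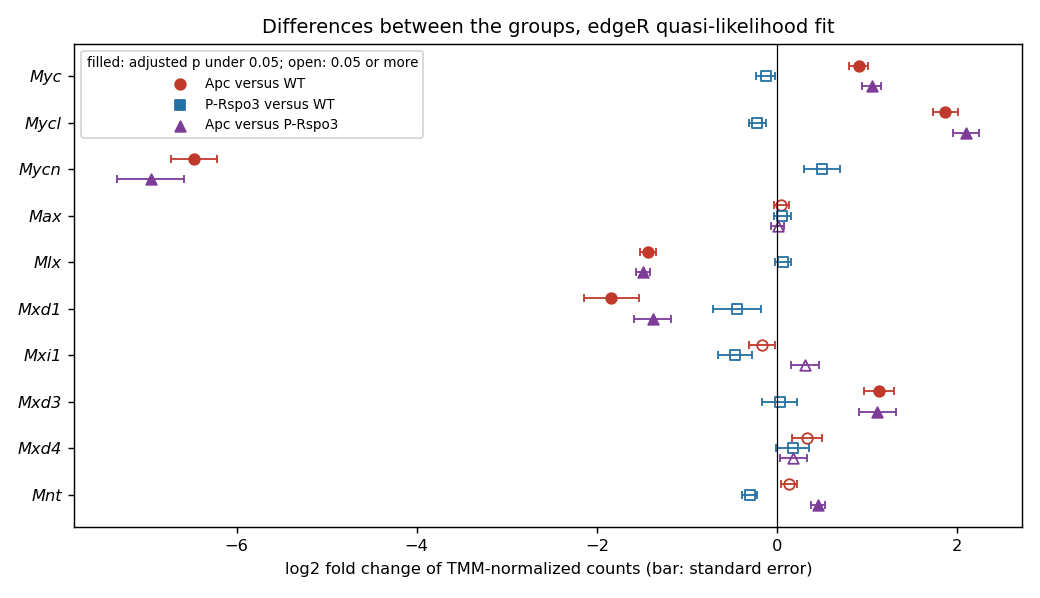
Log2 fold change of TMM-scaled counts (horizontal axis) with its standard error (bar) for each member in Apc versus WT (circles), P-Rspo3 versus WT (squares) and Apc versus P-Rspo3 (triangles), where filled symbols mark an adjusted p under 0.05. Symbols of P-Rspo3 versus WT are all open and lie between -0.46 and 0.49, while Mycn lies at -6.48 and -6.95 in the comparisons with Apc.

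Of the 5 antagonists that compete for MAX, Mxd1 fell and Mxd3 rose in Apc against WT. Mxd1, the family member tied to differentiation, had 11.2, 12.9, 17.2, 6.03 and 9.55 FPKM in WT, 3.30, 3.21, 3.45 and 5.72 in Apc and 7.27, 8.91, 10.5 and 7.33 in P-Rspo3. Its WT libraries spread the most of any member relative to the mean, and Apc 6 came close to WT 6 without overlapping it. The log2 fold change was -1.84 (SE 0.30, adjusted p = 0.00035), and it stayed between -2.07 and -1.62 with each library left out in turn.

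The markers of absorptive enterocytes moved with Mxd1. All 12 fell in Apc against WT, beside 29.0% of all genes, with a median log2 fold change of -7.77. Their summed level was 6778, 6291, 10660, 3930 and 7046 FPKM in WT, 186, 164, 182 and 154 in Apc and 2855, 3963, 4529 and 6173 in P-Rspo3. WT 5 was highest and WT 6 lowest of the WT libraries both for this sum and for Mxd1. The other groups did not show this match, as Apc 6 had the highest Mxd1 and the lowest sum of the Apc libraries, and P-Rspo3 F had the highest sum of its group with one of the lower Mxd1 levels. Fabp1, the fatty acid binding protein of enterocytes and the most abundant marker, averaged 2864 FPKM in WT and 2.49 in Apc, and none of the 12 was at 0 counts in any library. The part of this shift in the Mxd1 result was not tested, and in bulk RNA fewer cells of a type cannot be told apart from less RNA per cell.

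Mxd3, the member of the family found in S phase cells, had 2.68, 2.52, 2.28, 3.18 and 2.56 FPKM in WT, 6.55, 8.82, 6.18 and 6.83 in Apc and 4.0, 1.82, 2.66 and 2.29 in P-Rspo3. Each Apc library was well above all others, at a low level. The log2 fold change between Apc and WT was 1.13 (SE 0.17, adjusted p = 0.00016). The gene shares 105 exon bases with Prelid1 on the opposite strand, which had a median of 10735 counts and fell in Apc against WT (log2 fold change -0.48, adjusted p = 0.00013), and the strand setting of the counting is not given in the sources used here. Of the 10 proliferation genes 9 rose in Apc against WT, beside 30.0% of all genes that passed higher, and Birc5 did not pass (0.07). The median of the 10 was 0.61, and the largest value was that of Mcm2, a subunit of the replicative helicase (1.01). Their summed level was 570.5 ± 50.6 FPKM in WT, 1024 ± 51.1 in Apc and 589 ± 89.2 in P-Rspo3, and their part in the Mxd3 result was not tested.

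Mxi1, Mxd4 and Mnt did not pass between Apc and WT. Mxi1 had 11.5 to 18.1 FPKM in WT (median 12.9), 14.5 to 17.1 in Apc and 7.33 to 13.5 in P-Rspo3, so WT and Apc overlapped, and its log2 fold change was -0.17 (SE 0.15). That sign turned on log2(FPKM + 1), to 0.13. Mxd4, expressed in resting and differentiated cells in many tissues, had 10.4, 6.59, 8.24, 13.3 and 10.3 FPKM in WT, 13.6, 13.6, 18.4 and 15.5 in Apc and 10.9, 14.1, 8.64 and 11.9 in P-Rspo3. Its log2 fold change of 0.34 (SE 0.16, adjusted p = 0.10) passed without WT 6, at 0.44 (adjusted p = 0.030 with edgeR), and on both FPKM scales. Mnt, the broadly expressed antagonist, had 6.76 to 8.22 FPKM in WT and 9.16 to 10.6 in Apc, and a log2 fold change of 0.13 (SE 0.09, adjusted p = 0.22), which passed only on the FPKM scales. The antagonists together summed to 45.5 ± 4.71 FPKM in WT, 51.7 ± 2.55 in Apc and 38.9 ± 3.19 in P-Rspo3, while Mxd1 made up 24.5%, 7.54% and 21.8% of that sum. Myc over this sum was 0.953 ± 0.204 in WT, 1.88 ± 0.295 in Apc and 1.01 ± 0.0934 in P-Rspo3. All 4 Apc libraries (1.63 to 2.29) lay above all others (0.646 to 1.2) in this ratio.

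**Figure D3:**
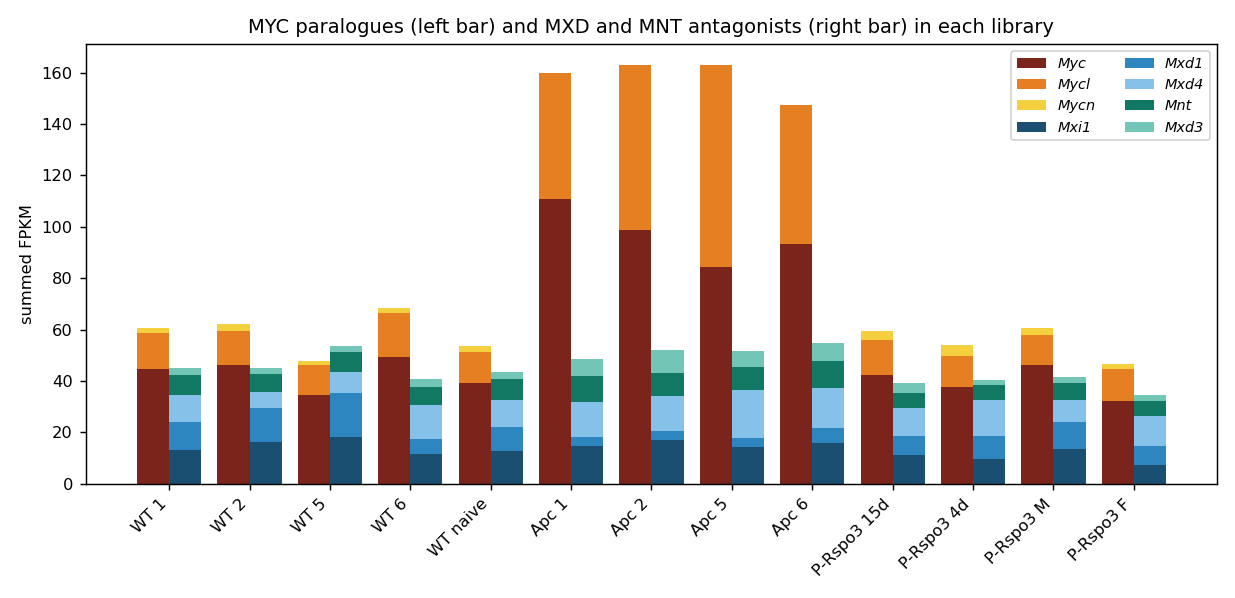
Summed FPKM (vertical axis from 0) of the MYC paralogues (left bar) and of the MXD and MNT antagonists (right bar) in each of the 13 libraries, stacked by gene. The left bars reach 147 to 163 in Apc and 46.5 to 68.5 elsewhere, the right bars lie between 34.4 and 54.6 in all libraries, and the share of Mxd1 is smallest in Apc.

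Mlx and its partner Mlxipl were lower in Apc, and Mlxip less clearly so. Mlx had 76.8, 63.1, 69.1, 58.9 and 69.7 FPKM in WT, 31.9, 27.8, 26.5 and 27.9 in Apc and 71.9, 70.3, 63.6 and 74.2 in P-Rspo3. The Apc libraries lay tightly together below all others, at a ratio of the mean FPKM of 2.37 between WT and Apc. The log2 fold change was -1.43 (SE 0.09, adjusted p = 3.2e-07). Mlx shares 385 exon bases with Psmc3ip on the opposite strand, which rose (log2 fold change 0.90, adjusted p = 0.00027) at a median of 184 counts.

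Mlxipl codes for ChREBP, the carbohydrate response factor that acts as a dimer with MLX in liver and gut. It had 71.3, 58.7, 104, 80.4 and 78.3 FPKM in WT, 13.9, 18.3, 14.6 and 16.1 in Apc and 72, 81.4, 47.8 and 95.1 in P-Rspo3. The groups Apc and WT were far apart, and P-Rspo3 spread around the WT level. Its log2 fold change between Apc and WT was -2.70 (SE 0.17, adjusted p = 3.6e-07). Mlxip, which codes for the related MondoA, fell by 0.49 on the log2 scale (SE 0.09, adjusted p = 0.00069), although in FPKM its Apc libraries (11.6 to 13.1) reached the WT range (13 to 17.4), and on both FPKM scales 1 of Mlxip and Mlxipl passed lower in place of both. Mga, a large MAX partner that joins a Polycomb complex, rose by 0.74 (SE 0.12, adjusted p = 0.00038), from 6.36 to 11.2 FPKM in WT to 14.7 to 19.7 in Apc.

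The 3 target genes listed for this branch all passed lower, beside 29.0% of all genes, but 2 of the 3 did so on both FPKM scales and without WT 1, WT 2, WT 5, Apc 1, Apc 2 or Apc 6. Pklr, the pyruvate kinase of liver and intestine, had 403 to 690 FPKM in WT, 26.3 to 37.7 in Apc and 301 to 575 in P-Rspo3, and its log2 fold change between Apc and WT was -4.34 (SE 0.21, adjusted p = 5.8e-08). Arrdc4, an arrestin-like regulator of glucose uptake, had 21.4 to 26.6 FPKM in WT and 12.8 to 17.3 in Apc (-0.99, SE 0.08, adjusted p = 1.5e-06). Txnip, its relative and an inhibitor of glucose uptake, overlapped between the groups in FPKM, with 106 to 209 in WT and 102 to 175 in Apc, and had -0.51 (SE 0.19, adjusted p = 0.037). Pklr and Mlxipl are also genes of differentiated enterocytes, and the part of the loss of enterocyte markers in these results was not tested. Mlxipl and Arrdc4 are the genes of this branch beside Mlx with an E-box in their promoter windows, on GRCm38.p6 at chr5:135089780-135089809 (plus strand) and chr7:68749414-68749443 (minus strand), shown as above to set beside the site of Mlx.
Mlxipl: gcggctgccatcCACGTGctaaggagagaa
Arrdc4: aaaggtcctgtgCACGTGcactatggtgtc
The windows of Mlxip, Pklr and Txnip did not hold these letters.

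**Figure D4:**
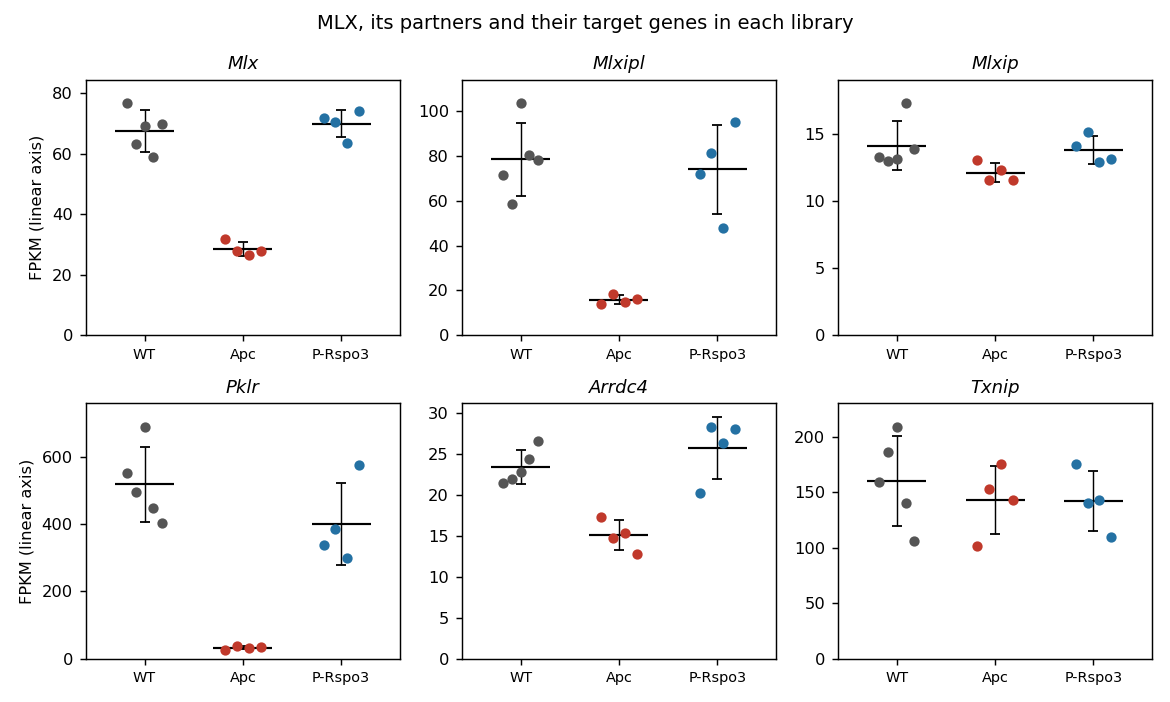
FPKM (linear vertical axes from 0) of Mlx, its partners Mlxipl and Mlxip, and the target genes Pklr, Arrdc4 and Txnip in WT, Apc and P-Rspo3, where each point is a library, the wide line the mean and the bar the SD. Mlx, Mlxipl, Pklr and Arrdc4 are lower in every Apc library than in every other library, while Txnip overlaps between the groups.

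The targets of MYC itself were followed with a list of 30 genes of nucleotide synthesis, ribosome production, the cell cycle and metabolism. In Apc against WT, 22 rose, 4 fell and 4 did not pass, beside 30.0% of all genes that passed higher and 29.0% lower. This list, like the others here, was chosen with earlier results of these data known, so the contrast with all genes is a description only. The median log2 fold change of the 30 genes was 0.42, where the median over all genes was 0.0006. The increases were small, and none exceeded 1 on the log2 scale. Tfrc, the transferrin receptor, rose most (0.82, SE 0.16, adjusted p = 0.0013), from 67.6 to 113 FPKM in WT to 180 to 235 in Apc. Ppat, the first enzyme of purine synthesis (0.79), Rrs1, a ribosome assembly factor (0.77), Cad, the first enzyme of pyrimidine synthesis (0.73), and Cdk4, a kinase of G1 phase (0.66), followed. The 4 that fell were Tert, the reverse transcriptase of telomerase (-1.02), Ldha, lactate dehydrogenase (-0.72), Hspd1, a mitochondrial chaperone (-0.36), and Phb, prohibitin (-0.34). Hspd1 and Phb overlapped between the groups in FPKM, at ratios of the means of 0.966 and 0.961, and the number of targets that fell was 2 on both FPKM scales, with all groups in 1 fit, and without Apc 2, Apc 5 or Apc 6. Odc1, the first enzyme of polyamine synthesis and a classic MYC target, had a log2 fold change of -0.04 (adjusted p = 0.83). Of the 24 genes of this list with a promoter window, 8 (33.3%) held the E-box, Cdk4 with 4 sites.

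Of the 5 genes listed as repressed by MYC, 4 fell in Apc against WT, beside 29.0% of all genes, with 3 on both FPKM scales and 5 without the naive library or with the replicate block. Cdkn2b, the inhibitor p15, had a log2 fold change of -2.68 (SE 0.24, adjusted p = 3.8e-06), with 15.8 to 34.3 FPKM in WT and 4.4 to 6.87 in Apc. Ndrg1, a stress and differentiation gene, fell by 1.58 and Gadd45a, a DNA damage gene, fell by 1.31 on the log2 scale. Cdkn1a, the inhibitor p21, fell by 0.70 (adjusted p = 0.015), but its FPKM overlapped between WT (83.0 to 171) and Apc (87.5 to 128). Cdkn1b, the inhibitor p27, had -0.18 (adjusted p = 0.099) and the same level in FPKM within its spread, with a mean of 27 in WT and 27.3 in Apc. The proliferation and enterocyte genes above moved with both lists, and their part in these counts was not tested.

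Genes that act on the MYC protein or with it were read next. Of 10 turnover genes, 4 rose and none fell, near the 30.0% of all genes that passed higher, among them Cip2a, an inhibitor of the phosphatase that destabilises MYC (0.78, SE 0.12), Aurka, a mitotic kinase that protects MYCN from degradation (0.42), and Huwe1, a ubiquitin ligase (0.34). Fbxw7 (0.17, adjusted p = 0.068) and Skp2 (0.29, adjusted p = 0.054), which code for ubiquitin ligase subunits that bind MYC, did not pass, nor did Usp28 (0.07), Usp36 (0.19), Gsk3b (-0.01) and Pim1 (-0.20). Over the alternatives 3 to 9 of the 10 passed higher, with 8 on log2(FPKM + 1) and 9 on log2(FPKM + 0.1), where most genes are shifted upwards in Apc. Of 9 cofactors, Ruvbl1 (0.66), Trrap (0.50), Kat2a (0.41), Ep400 (0.36) and Wdr5 (0.32) rose (8 of the 9 on both FPKM scales), beside the same 30.0% of all genes, and Bin1, a MYC-binding tumour suppressor, fell (-2.20, SE 0.25, adjusted p = 2.4e-05). Bin1 had 9.05 to 16.3 FPKM in WT and 2.27 to 4.67 in Apc, whereas in P-Rspo3 it had 16.4 in library M and 2.93, 4.45 and 5.78 in 15d, 4d and F. Of 6 corepressors used by the MXD proteins, Sap30 (0.85), Hdac2 (0.58), Hdac1 (0.56) and Sin3a (0.48) rose, again beside 30.0% of all genes, and Ncor1 fell (-0.53).

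**Figure D5:**
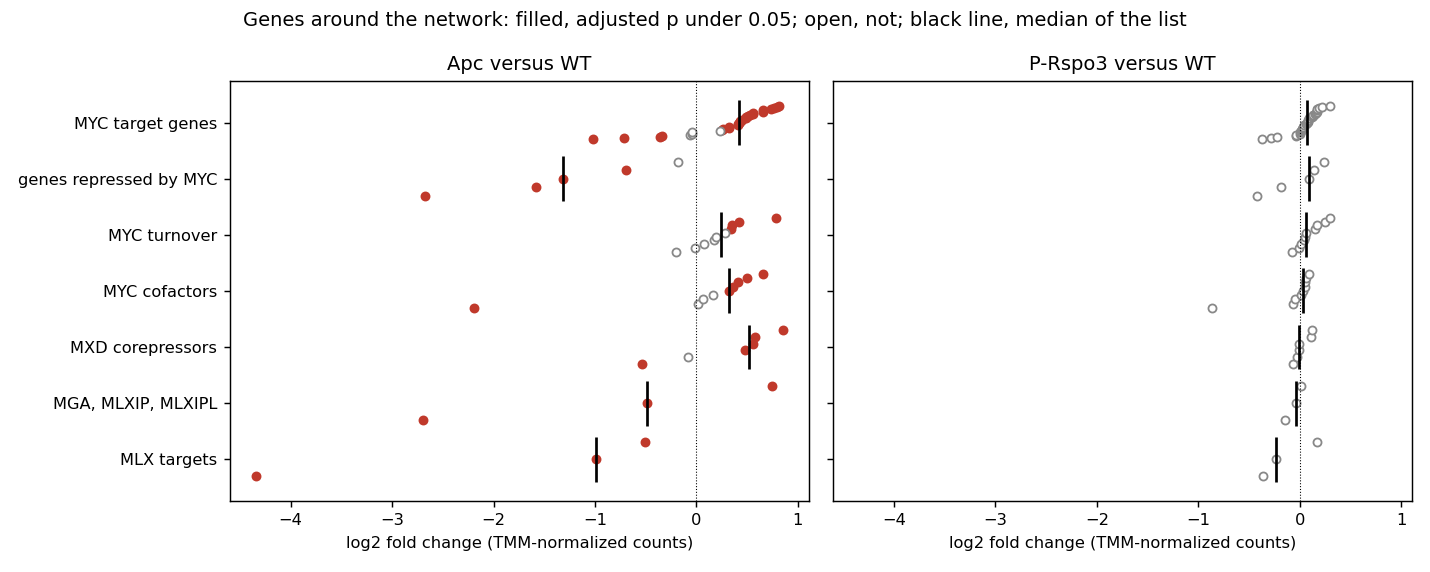
Log2 fold change of TMM-scaled counts (horizontal axis) of each gene in 7 lists around the network in Apc versus WT (left) and P-Rspo3 versus WT (right), where filled points mark an adjusted p under 0.05, open points the others, and black lines the list medians. The median of the MYC targets is 0.42 on the left and 0.07 on the right, and no point is filled on the right.

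Wnt target genes and other cell type markers were read beside the network. All 10 Wnt targets rose in Apc against WT, with a median of 1.98, Axin2 by 1.97 and Lgr5, the receptor of crypt stem cells, by 1.45. This count and the others of this paragraph stand beside 30.0% of all genes that passed higher and 29.0% that passed lower. Of 8 stem cell genes 6 rose, of which Lgr5, Ascl2 and Axin2 are also among the Wnt targets, while Olfm4 fell by 9.78 on the log2 scale, and Slc12a2 did not pass (-0.32). All 7 goblet cell genes fell (median -3.59), as did 6 of 7 Paneth cell genes, 4 of 7 enteroendocrine genes and 3 of the 4 tuft cell genes tested, and Mmp7 was the Paneth gene that rose (1.74). The tuft cell count was 2 with the replicate block and 1 on both FPKM scales, and Trpm5 and Pou2f3 overlapped between the groups in FPKM. The enteroendocrine count was 6 without Apc 2. Of the immune genes, Ptprc, Cd3e and Adgre1 had at most 3 counts in every Apc library, and only Cd68 and Itgam were tested. Cd68, a lysosomal protein, rose by 2.55 from a mean of 0.78 FPKM in WT to 6.24 in Apc, and Itgam, an integrin of myeloid cells, fell by 2.54 from 1.33 to 0.299.

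The second comparison, P-Rspo3 against WT, asks whether the rearrangement without added R-spondin changes the network. No member passed with edgeR, and over all 15992 genes tested 0.00625% passed higher, which is Rspo3 alone, and 0.0% lower. At an unadjusted p under 0.05 there were 1034 genes higher and 1125 lower, among them 1 member higher (Mycn) and 2 lower (Mxi1 and Mnt). Without the naive library the counts of genes that passed were 232 and 153, and no member was among them. The log2 fold changes of the members lay between -0.46 for Mxi1 (SE 0.19) and 0.49 for Mycn (SE 0.20), with -0.13 (SE 0.11) for Myc, -0.22 (SE 0.10) for Mycl, 0.06 (SE 0.09) for Max and 0.07 (SE 0.09) for Mlx.

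Mnt was the member whose P-Rspo3 and WT libraries did not overlap. It had 7.74, 6.76, 7.51, 6.96 and 8.22 FPKM in WT and 6.03, 5.69, 6.34 and 5.56 in P-Rspo3, and every P-Rspo3 library was lower, as was true of 2.08% of all genes, while no member lay above WT in this way (2.06% of all genes) and 4.13% of all genes did not overlap in either direction. The log2 fold change was -0.30 (SE 0.08, adjusted p = 0.15 with edgeR), and with DESeq2, which called 204 genes higher and 304 lower, it was -0.31 (adjusted p = 0.032). The separation of Mnt holds for the grouped libraries only. Of the 2 put in no group, LIPO, labelled WT, had 5.62 FPKM of Mnt, within the P-Rspo3 range. NAIVE_F, labelled P-Rspo3, had 6.48, between the ranges of P-Rspo3 and WT. For Mycn, P-Rspo3 4d (4.41) and 15d (3.73) were above every WT library, M (2.6) was just above and F (1.97) within the WT range. Mxd3 showed no direction, as its log2 fold change of 0.03 (SE 0.20) lay between -0.15 and 0.14 with each library left out in turn. None of the genes in the lists around the network passed with edgeR over all libraries, and the median of the 30 MYC targets was 0.07, beside 0.0041 over all genes, and its sign turned without WT 5 or without P-Rspo3 M. All 10 Wnt targets had negative values, with a median of -0.52. At an unadjusted p under 0.05 with edgeR, 4 of them were lower, beside 1125 of all 15992 genes tested. Nkd1, a Wnt feedback inhibitor (-2.77, adjusted p = 0.096), and Sp5, a Wnt-induced transcription factor (-2.04, adjusted p = 0.12), had the lowest values, and every P-Rspo3 library lay below every WT library in FPKM for both. With DESeq2, and with edgeR without the naive library, 2 of the 10 passed lower. The other calls gained under these alternatives were 1 proliferation gene and 1 tuft cell gene lower with DESeq2, 1 stem cell gene lower without the naive library, and 1 stromal gene higher under both. The missing calls do not show that the groups are alike, since the standard errors leave room for changes of the size seen in these estimates.

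The third comparison, Apc against P-Rspo3, sets both mutants side by side in the same medium, and its libraries are those of the comparisons above. Of the members, 4 passed higher in Apc (28.7% of 16456 genes did) and 3 lower (27.7%, or 56.4% together), and among all genes that passed 50.9% were higher, or 68.0% on log2(FPKM + 1). Myc had a log2 fold change of 1.05 (SE 0.11, adjusted p = 3.5e-05), Mycl 2.10 (SE 0.15, adjusted p = 3.6e-06) and Mxd3 1.11 (SE 0.21, adjusted p = 0.0014). Mycn had -6.95 (adjusted p = 7.8e-07), on 1206 counts in P-Rspo3 against 12 in Apc, a ratio of 109 (95% interval 62.3 to 212, for counting error only). Mlx had -1.49 (SE 0.08, adjusted p = 9.7e-07) and Mxd1 -1.38 (SE 0.20, adjusted p = 0.0003). In FPKM, 6 members lay above P-Rspo3 in every Apc library (38.0% of all genes) and 3 below (17.5%), leaving Mxd4 as the member that overlapped, while 55.6% of all genes did not overlap.

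Mnt passed between the mutants, with a log2 fold change of 0.45 (SE 0.08, adjusted p = 0.00074), and not in either comparison with WT. Its mean level was 9.78 ± 0.725 FPKM in Apc, 7.44 ± 0.589 in WT and 5.90 ± 0.354 in P-Rspo3. None of the 3 groups overlapped in FPKM, while Apc and WT overlapped in TMM-scaled counts. Max (0.01), Mxi1 (0.31, adjusted p = 0.11) and Mxd4 (0.18) did not pass, although Mxi1 passed without P-Rspo3 M, at 0.46 (adjusted p = 0.011 with edgeR). Of the 30 MYC targets 21 were higher in Apc and 5 lower, beside 28.7% and 27.7% of all genes. The count of higher genes was 13 without Apc 1, 14 without Apc 5, 13 without P-Rspo3 4d and 12 without P-Rspo3 F. The count of lower genes was 2 without Apc 2, Apc 5, P-Rspo3 4d or P-Rspo3 M, 3 without Apc 6 or with all groups in 1 fit, and 1 on both FPKM scales. Tfrc was again highest (1.11) and Odc1 was lower (-0.33, adjusted p = 0.026). Of the 10 proliferation genes 7 passed higher in this comparison, and all 12 enterocyte genes passed lower. Their part in the counts of MYC targets was not tested. Mlxipl (-2.54), Pklr (-3.96) and Arrdc4 (-1.14) were lower in Apc than in P-Rspo3 as well, and Txnip had -0.26 (adjusted p = 0.21).

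Genes with the most similar pattern to Myc were sought among 10479 genes, by Pearson's r of log2 depth-scaled counts over the 13 libraries. The r was highest for App, the amyloid precursor protein (0.991), Arhgef17 (0.982), Pla2g12a (0.982), Hunk (0.982) and Mtap, a salvage enzyme of methionine (0.982), and most negative for Tmc6 (-0.988), Hectd3 (-0.983) and Sel1l3 (-0.982). These points share the split between Apc and the other groups, and r cannot be told apart from that split. For Mxd4, which did not pass in any comparison, the highest were Tbccd1 (0.916), Maco1 (0.900), Dvl3 (0.876), Vps33a (0.865) and Acap3 (0.856), and the most negative Nelfb (-0.841), Paox (-0.821) and Sema3b (-0.808).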

How the data were processed

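The authors used STAR against GRCm38 and deposited raw read counts per Ensembl gene (HTSeq 0.6.0, per the labels) and FPKM (Cufflinks 2.2.1). The annotation release and the strand setting are not given in the sources used here. Of 43629 genes in the count table, 43437 had FPKM values and 42462 a symbol. The members and lists were chosen with earlier results of these data known. Counts were tested with edgeR 4.0.16 (TMM, glmQLFit and glmQLFTest) in R 4.3.3, in a separate fit per comparison, over genes that reached an FPKM of 0.1 in as many libraries as the smaller group has, or more. SE is the log2 fold change over the root of F. On simulated counts with 200 genes changed 4-fold the test recovered 197 (Apc versus WT, 16749 genes), 199 (P-Rspo3 versus WT, 15992 genes) and 198 (Apc versus P-Rspo3, 16456 genes). Unchanged genes with an adjusted p under 0.05 in edgeR numbered 2, 13 and 8. The changed genes were well expressed and all others were kept equal. Smaller changes, such as those of the members in P-Rspo3 versus WT, were not simulated. Alternatives used DESeq2 1.42.0, limma 3.58.1 on log2(FPKM + 1) and log2(FPKM + 0.1), other filters and fits, and each library left out. Same-numbered WT and Apc libraries are of the same lines by their labels, and the correlation of their deviations had a median of 0.11 over 4 pairs. Named genes are the members, those of the lists with the largest changes, those of the turnover, MGA, MLXIP, MLXIPL and MLX target lists, and those of highest likeness. Genes outside this rule, such as Odc1, Cdkn1b and Bin1 in P-Rspo3, were chosen after their values were seen. Another 2 libraries were put in no group, LIPO because its title is not explained by its WT genotype label, and NAIVE_F because its title and its P-Rspo3 genotype label contradict each other. No library repeated another of its group (the smallest chi-square per gene of a pair was 22.4). Pairs across groups, and pairs with LIPO or NAIVE_F, were not compared. Intervals cover counting error only. Values of 2 genes of these lists are not reported here.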

Additional observations from a re-analysis of the deposited data

Results flagged for a closer look

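Mxd1 stood at 5.72 FPKM in Apc 6, apart from the other Apc libraries (3.21 to 3.45), and was the only 1 of 30 groups of member values in which a single library stood apart from the rest. Chance alone marks about 1 in 20 such groups. The Apc level stayed below every WT library with this library included.

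Rspo3 had 729 counts in the library titled NAIVE_F, which entered no comparison because its title reads as dox-naive and its genotype as P-Rspo3. WT libraries had 0 or 1 counts, and the other library outside the groups, titled LIPO, had 0.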

How the results depend on the processing

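Of 510 alternatives to the 30 member values, 482 left direction and side of the threshold as they were, 15 gained a call and 13 turned the sign, and 20 of the 30 values were the same in all that were run. The replicate block on the line number (4490 genes passed higher and 4369 lower in Apc versus WT) changed no call of a member. On log2(FPKM + 1) and log2(FPKM + 0.1) with limma, 6 members passed higher in Apc versus WT and 7 in Apc versus P-Rspo3 on both scales, with Max, Mxd4 and Mnt added in the first and Max, Mxi1 and Mxd4 in the second, where most genes shift upwards. There Mxi1 turned to 0.13 and 0.139 in Apc versus WT and Mxd3 to -0.009 and -0.024 in P-Rspo3 versus WT. The genes past the test numbered 3219 lower in Apc versus WT on log2(FPKM + 1), with 1132 below -1, and in Apc versus P-Rspo3 1430 above 1 and 1124 below -1. With a filter of FPKM at least 1, 1184 of 12334 genes tested (Apc versus WT) and 1264 of 12197 (Apc versus P-Rspo3) lay above 1. With the main filter they were 2048 of 16749 and 2209 of 16456.

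In P-Rspo3 versus WT the genes past the test were 204 higher and 304 lower with DESeq2 (55 above 1, 173 below -1, and 1 member lower, Mnt), 2 and 11 with no filter (2 and 11), 43 and 87 with all 3 groups in 1 fit (11 and 63), 2 and 4 with the newer form of the quasi-likelihood test (2 and 4), 4 and 8 on log2(FPKM + 1) (3 and 4), and 2 and 1 on log2(FPKM + 0.1) (2 and 1). With each library left out they were 1 to 232 higher and 0 to 153 lower (1 to 166 above 1, 0 to 100 below -1), the most without the naive library, and the cause was not tested. Mxd3 then lay between -0.146 and 0.143 and Max between -0.008 and 0.103. Max lay between -0.016 and 0.085 in Apc versus WT, and between -0.036 and 0.037 in Apc versus P-Rspo3. With depth-scaled counts per kb of exon in place of FPKM, Myc over the antagonists was 1.16 (WT), 2.35 (Apc) and 1.25 (P-Rspo3), and Mycl made up 24.6% of the paralogues in WT. Mycn in Apc, at 2 to 5 counts, is the member that depth limits.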

Other observations

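In the 2 libraries outside the groups, the members other than Mycn lay within the combined FPKM range of WT and P-Rspo3. Mycn had 1.68 FPKM in LIPO and 1.72 in NAIVE_F, below the lowest WT (1.86) and P-Rspo3 (1.97) libraries. Myc had 36.7 FPKM in both, Mycl made up 23.2% of the paralogues in LIPO and 24.4% in NAIVE_F, and Myc over the antagonists was 0.883 and 0.856.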
